A study of Mus musculus with 10 samples.

Results

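The genes described here are 9 genes of leukocyte recruitment, namely the CC chemokines Ccl2, Ccl7, Ccl3, Ccl4 and Ccl5, the CXC chemokines Cxcl1 and Cxcl2, and the monocyte receptors Ccr2 and Cx3cr1. They were taken by gene symbol from the platform's table of probes and genes, where they are 9 of 18193 genes and have 15 of the 45037 probe sets of the array. Affymetrix arrays, 1 for each mouse, measured spleen RNA of 10 female mice of the BALB/c strain. All 10 mice, arthritic or not, had been immunized intraperitoneally with cartilage proteoglycan (PG) in the adjuvant DDA, the protocol of PG-induced arthritis (PGIA), so no unimmunized mouse serves as a baseline. The old arthritic group held 2 mice of 9 months, the old non-arthritic group 2 mice of 7 and 5 months, the young arthritic group 2 mice of 5 and 4 months and the young non-arthritic group 4 mice of 3, 3, 2 and 1 months. The labels do not say whether these ages were taken at the first injection or at sacrifice. Within the old group and within the young group, the arthritic mice were all older than the non-arthritic ones, whose highest age was 7 months. A comparison called here equal age therefore holds age in months constant, which assumes that the signal moves along a straight line with age.

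Chemokines are small secreted proteins that draw leukocytes along a gradient through G protein-coupled receptors. Ccl2 and Ccl7 are ligands of Ccr2, the receptor with which inflammatory monocytes leave the bone marrow. Ccl3, Ccl4 and Ccl5 draw T cells, NK cells and monocytes, Cxcl1 and Cxcl2 bind Cxcr2 and draw neutrophils, and Cx3cr1, the receptor of Cx3cl1, is high on patrolling monocytes and on many tissue macrophages. The mouse spleen stores monocytes and, under inflammation, produces myeloid cells.

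Several of these genes are neighbours among the protein-coding genes of the RefSeq annotation. Ccl2 lies next to Ccl7 and Ccl3 next to Ccl4 on chromosome 11, which also holds Ccl5. Cxcl1 lies next to Cxcl2 on chromosome 5, and both receptors lie on chromosome 9. The promoters of Cxcl1 and Cxcl2 are shown because both hold the letters GGGAATTTCC, a site of the NF-κB type. They are the 130 bases before the transcript start, on the plus strand, from RefSeq (GRCm38.p6), with the site in capitals.
Cxcl1 (chr5:90891115-90891244): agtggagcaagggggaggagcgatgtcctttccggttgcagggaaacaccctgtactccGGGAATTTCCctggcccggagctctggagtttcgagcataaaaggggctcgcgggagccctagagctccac
Cxcl2 (chr5:90903769-90903898): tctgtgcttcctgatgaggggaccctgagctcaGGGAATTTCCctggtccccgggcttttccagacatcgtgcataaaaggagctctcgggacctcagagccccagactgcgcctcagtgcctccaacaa
The site begins 71 bases before the start in Cxcl1 and 97 bases before it in Cxcl2, and 4 further bases after it are the same in both promoters. The letters were taken from the match to the NF-κB consensus that both promoters share. Searched on both strands from 250 bases before to 50 bases after the start, the NF-κB consensus occurred in 4.51% of 32851 promoters and the exact letters in 29 of them (0.0883%). Of the 5 member genes with an entry (Ccl3, Cxcl1, Cxcl2, Ccr2 and Cx3cr1), only Cxcl1 and Cxcl2 held a match to either. A match describes the sequence and does not show that a factor binds there.

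Signals are on the log2 scale after RMA, the robust multi-array average, and the medians of the 10 arrays lay between 6.88 and 6.96. RMA gives no detection call, so a level above background is not shown for a signal below these medians. Tests were limited to probe sets that exceeded the array median on 2 or more arrays, which 13 of the 15 probe sets and 7 of the 9 genes did. Ccl7 lay below the median on every array and Cxcl2 on 9 of 10. Ccl2 lay above it on 3 arrays, all of arthritic mice, and thus entered the tests only through the group in which it was higher. Cx3cr1 probe set 1450019_at lay above it on 4 arrays, and the other 11 probe sets on all 10. Markers of blood cell types lay above the median on every array, namely Cd79a of B cells, Cd3e of T cells, Adgre1 and Spic of red pulp macrophages, Ncr1 of NK cells and S100a8 and Ngp of neutrophils. Msln of the mesothelium that covers the spleen did so on 6 arrays and Adipoq of fat on 5. Old arthritic replicate 2 stood apart from the other arrays, with a score of 52.55 on the first principal component of the tested probe sets (40% of the variance) against -23.64 to 19.57 in the others. In a piece of whole spleen, fewer cells of a type and less RNA per cell cannot be told apart.

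Ccl2, the main ligand of Ccr2, gave the highest signals in arthritic mice. The log2 signal of its only probe set, 1420380_at, was 6.98 and 6.64 in old arthritic, 5.88 and 6.48 in old non-arthritic, 7.15 and 7.23 in young arthritic and 6.67, 6.60, 6.55 and 6.77 in young non-arthritic mice. All but old arthritic replicate 2 of the 4 arthritic mice lay above all 6 non-arthritic mice, so the groups overlapped through 1 mouse. The mean was 7.00 ± 0.26 (SD, n = 4) in arthritic and 6.49 ± 0.32 (SD, n = 6) in non-arthritic mice. All non-arthritic values lay below the array medians, so the difference describes the signal and is no measured fold of a Ccl2 level. At equal age arthritic mice had a Ccl2 signal higher by 0.86 in log2 units (standard error 0.12, 95% interval 0.59 to 1.13, adjusted p = 0.0178 by limma). As only arthritic arrays brought Ccl2 past the filter, that p is not independent of the filter. Fitted with all 45037 probe sets and no filter, where 7.14% were called higher, its adjusted p was 0.00228. Without age in the fit the difference was 0.50 and did not pass (adjusted p = 0.0759), and with the replicate number as a block it was 0.85 and did not pass (adjusted p = 0.0609). Without old arthritic replicate 2 it was 0.87 (adjusted p = 0.0239).

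Ccl7, encoded beside Ccl2 and a ligand of the same receptor, did not follow it. The log2 signal of 1421228_at was 5.22 and 5.19 in old arthritic, 5.37 and 5.59 in old non-arthritic, 5.22 and 5.30 in young arthritic and 5.79, 5.54, 5.71 and 5.89 in young non-arthritic mice. The arthritic mice lay below the non-arthritic mice without overlap, as did 8.93% of the 21232 probe sets that were too dim for the tests. Fitted with all 45037 probe sets, Ccl7 had a log2 difference of -0.26 at equal age (standard error 0.10, adjusted p = 0.0954) and was lower in young arthritic mice, with a log2 difference of -0.47 (standard error 0.11, adjusted p = 0.0321). There, 17.7% of those dim probe sets passed at equal age and 11.7% in young mice (5.67% lower), so probe sets this dim moved with arthritis widely. The part of that movement in the differences of Ccl2, Ccl7 and Cxcl2, all near or below the array medians, was not tested.

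Cxcl1, a ligand of Cxcr2, has 3 probe sets, which disagreed. Affymetrix uses the suffix _s for probe sets whose probes match several transcripts and _x for those with probes that may also bind other transcripts. The log2 signal of 1457644_s_at was 8.70 and 8.32 in old arthritic, 7.78 and 8.09 in old non-arthritic, 8.96 and 8.64 in young arthritic and 8.29, 8.24, 8.21 and 8.32 in young non-arthritic mice. Of the arthritic mice, 3 of 4 lay above all non-arthritic mice, and old arthritic replicate 2 lay level with the highest of them. The means were 8.65 ± 0.26 (SD, n = 4) and 8.15 ± 0.20 (SD, n = 6). At equal age this probe set was higher in arthritic mice by 0.73 (standard error 0.12, 95% interval 0.46 to 1.00, adjusted p = 0.0252 by limma), and by 0.75 (adjusted p = 0.0242) without old arthritic replicate 2.

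The Cxcl1 probe set without a suffix for shared probes, 1419209_at, had log2 signals of 7.70 and 7.96 in old arthritic, 6.95 and 7.77 in old non-arthritic, 9.03 and 8.37 in young arthritic and 8.17, 8.12, 7.67 and 7.81 in young non-arthritic mice. Both young arthritic mice were the highest and old non-arthritic replicate 1 was the lowest, while the old arthritic mice lay within the non-arthritic range. Its difference at equal age was 1.02 (standard error 0.25, 95% interval 0.46 to 1.57) and missed the threshold (adjusted p = 0.0624). The third, 1441855_x_at, lay between 8.39 and 8.65 in arthritic and between 8.47 and 8.90 in non-arthritic mice. It had a difference of -0.20 at equal age (standard error 0.11, adjusted p = 0.291). Over the 10 arrays the first 2 probe sets had a Pearson correlation of 0.81 with each other, and the third had -0.58 and -0.53 with them.

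Cxcl2, the neighbour of Cxcl1 and another ligand of Cxcr2, was dim. The log2 signal of 1449984_at was 5.90 in both old arthritic mice, 5.65 and 6.05 in old non-arthritic, 7.09 and 6.34 in young arthritic and 6.28, 6.52, 6.31 and 6.37 in young non-arthritic mice. Young arthritic replicate 1, also the highest mouse for Cxcl1 probe sets 1419209_at and 1457644_s_at but not for 1441855_x_at, was the only one above its array median. Over the 10 arrays the Pearson correlation of Cxcl2 was 0.87 with Cxcl1 probe set 1419209_at, 0.64 with 1457644_s_at and -0.19 with 1441855_x_at. In the fit of all probe sets its difference at equal age was 0.57 (standard error 0.19, adjusted p = 0.0740).

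**Figure D1:**
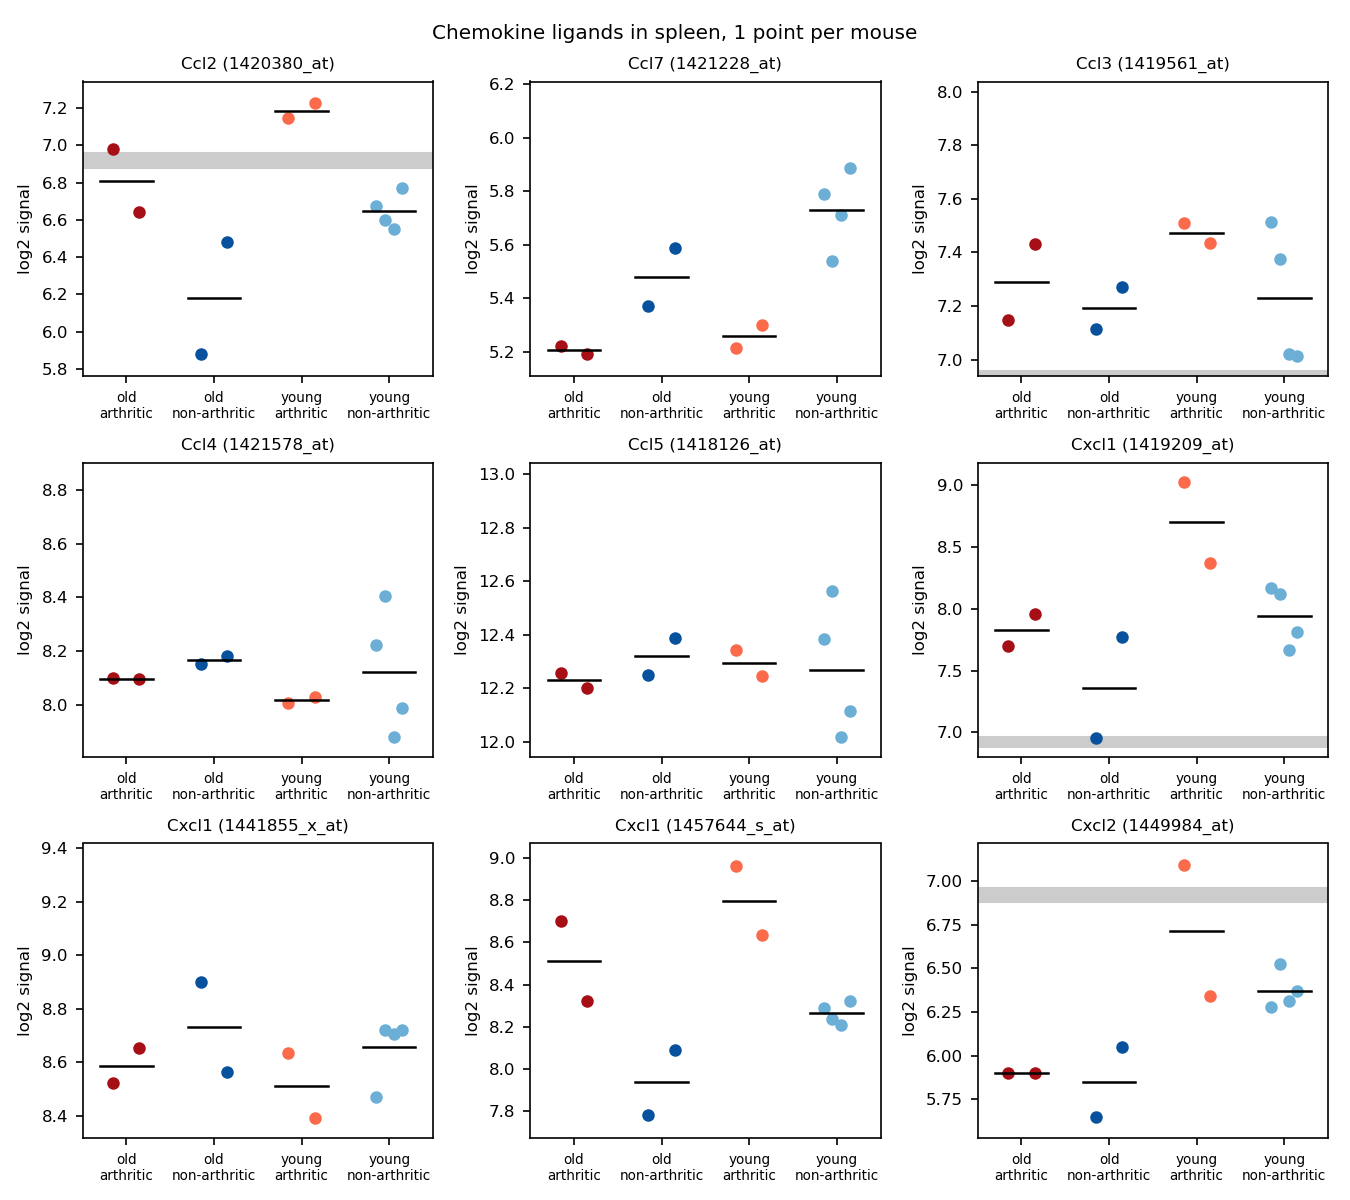
Log2 RMA signal (y-axis) of the 9 probe sets of the 7 chemokine genes in the 4 groups (x-axis), with 1 point per mouse, the group mean as a bar and the range of the array medians as a grey band. Ccl2 and Cxcl1 probe set 1457644_s_at show 3 of 4 arthritic mice above all non-arthritic mice, and Ccl7 shows all 4 below them.

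None of Ccl3, Ccl4 and Ccl5 passed the threshold. Ccl5, which T cells and NK cells also make, was the brightest member probe set, with 12.26 and 12.20 in old arthritic, 12.25 and 12.39 in old non-arthritic, 12.34 and 12.25 in young arthritic and 12.38, 12.56, 12.02 and 12.11 in young non-arthritic mice. Its difference at equal age was -0.06 (95% interval -0.34 to 0.23, adjusted p = 0.819 by limma). Ccl4 lay between 8.01 and 8.10 in arthritic and between 7.88 and 8.40 in non-arthritic mice, with a difference of -0.16 (95% interval -0.41 to 0.10, adjusted p = 0.433). Ccl3, encoded beside Ccl4, lay between 7.15 and 7.51 in arthritic and between 7.01 and 7.51 in non-arthritic mice, and differed by 0.20 (95% interval -0.13 to 0.52, adjusted p = 0.439). For all 3 genes the arthritic mice lay inside the range of the young non-arthritic mice. Ccl4 and Ccl5 varied together over the arrays (Pearson correlation 0.89), while Ccl2 had correlations of -0.30 with Ccl4 and 0.01 with Ccl5.

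Ccr2, the receptor of Ccl2 and Ccl7, has 4 probe sets, and none passed the threshold at equal age. The brightest, 1421186_at, had log2 signals of 10.07 and 9.88 in old arthritic, 9.84 and 9.93 in old non-arthritic, 10.25 and 10.51 in young arthritic and 10.09, 10.26, 9.87 and 9.94 in young non-arthritic mice. Young arthritic replicate 2 was the highest, and the groups overlapped. Its difference at equal age was 0.37 (standard error 0.13, 95% interval 0.08 to 0.66, adjusted p = 0.137 by limma). For 1421187_at the difference was 0.32 (adjusted p = 0.260), for 1460067_at 0.19 (adjusted p = 0.244) and for 1421188_at 0.04 (adjusted p = 0.885). In 1460067_at the arthritic mice read 8.88, 8.80, 8.55 and 8.81 and the non-arthritic mice 8.32 to 8.70, so that 3 of 4 arthritic mice lay above all others. With arthritis status alone in the fit this probe set passed, with a difference of 0.34 (adjusted p = 0.0403 by limma). That fit does not hold age constant, and 2517 of the 23805 tested probe sets passed in it, against 538 at equal age. The 4 probe sets had Pearson correlations of -0.31 to 0.77 with each other.

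Cx3cr1 did not separate the groups. The brighter probe set, 1450020_at, read 8.81 and 8.68 in old arthritic, 8.91 and 8.44 in old non-arthritic, 8.88 and 8.74 in young arthritic and 8.52, 8.64, 8.48 and 8.34 in young non-arthritic mice. Old non-arthritic replicate 1 was the highest, and all other non-arthritic mice lay below the arthritic mice. The difference at equal age was 0.12 (95% interval -0.15 to 0.38, adjusted p = 0.591 by limma). The dimmer 1450019_at had -0.23 (95% interval -0.69 to 0.23, adjusted p = 0.541), and its values ran from 6.25 to 7.34.

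**Figure D2:**
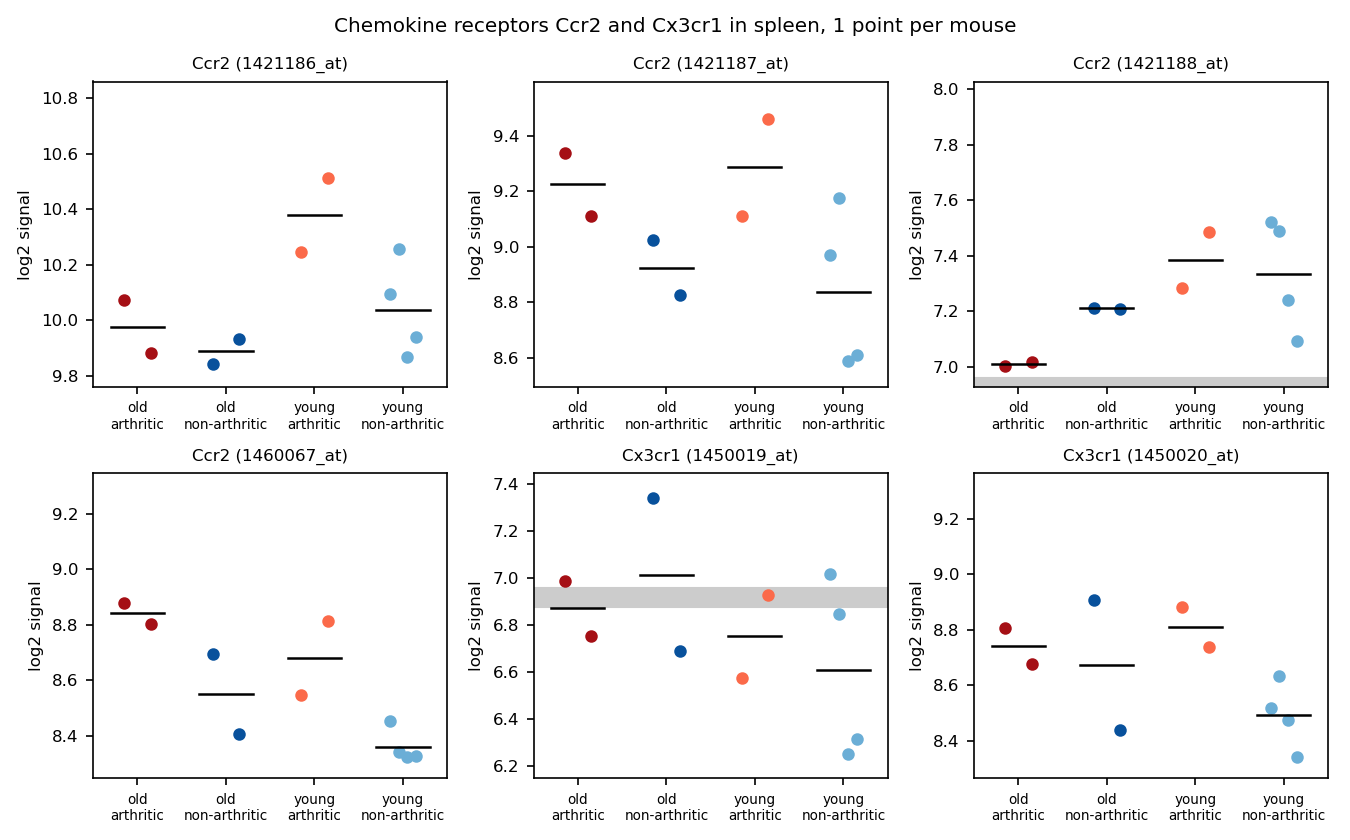
Log2 RMA signal (y-axis) of the 4 Ccr2 and 2 Cx3cr1 probe sets in the 4 groups (x-axis), with 1 point per mouse, the group mean as a bar and the range of the array medians as a grey band. Arthritic and non-arthritic mice overlap in every panel, and in Ccr2 probe set 1460067_at 3 of 4 arthritic mice lie above all non-arthritic mice.

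The design text of the series asks how old and young immunized mice without arthritis differ, and how non-arthritic differ from arthritic mice. Of the 13 tested member probe sets, 2 passed the threshold at equal age, both higher in arthritic mice, beside 2.26% of all 23805 probe sets (1.81% higher). The median difference was 0.19 over the 13 and 0.09 over all tested probe sets. The 13 count Ccr2, Cxcl1 and Cx3cr1 more than once. With each of the 7 tested genes standing for its brightest tested probe set, 1 passed and the median was 0.12. Ccl2 passed the filter through arthritic mice alone, so these counts are a description. In old mice alone none of the 13 passed (0.0714% of all), with 3 higher at an unadjusted p under 0.05 beside 13.6% of all. In young mice alone none passed either (0.311% of all), with 7 higher and none lower at an unadjusted p under 0.05 beside 15.3% higher of all. They belong to Ccl2, Cxcl1 (2 probe sets), Ccr2 (3 probe sets) and Cx3cr1. With the brightest tested probe set for each gene, 3 of the 7 genes were higher there. Ccl2 differed by 0.63 in old mice (standard error 0.19, adjusted p = 0.143) and by 0.54 in young mice (standard error 0.16, adjusted p = 0.162). Cxcl1 probe set 1457644_s_at differed by 0.57 in old mice (standard error 0.16, adjusted p = 0.131) and by 0.53 in young mice (standard error 0.14, adjusted p = 0.129). The difference between the 2 effects, old minus young, was 0.09 for Ccl2 (95% interval -0.46 to 0.65) and 0.04 for Cxcl1 (95% interval -0.44 to 0.52). Leaving out a mouse moved the old-mouse difference of Ccl2 between 0.33, without old non-arthritic replicate 1, and 0.93, without old non-arthritic replicate 2. That of Cxcl1 moved between 0.38, without old arthritic replicate 1, and 0.77, without old arthritic replicate 2. The difference between the effects ran from -0.21 to 0.39 for Ccl2 and from -0.15 to 0.23 for Cxcl1, and thus took both signs. No probe set of the array (0%) passed that test by limma, with 737 at an unadjusted p under 0.05 (3.1%) and no member among them. These comparisons use the same mice and are not independent of each other.

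**Figure D3:**
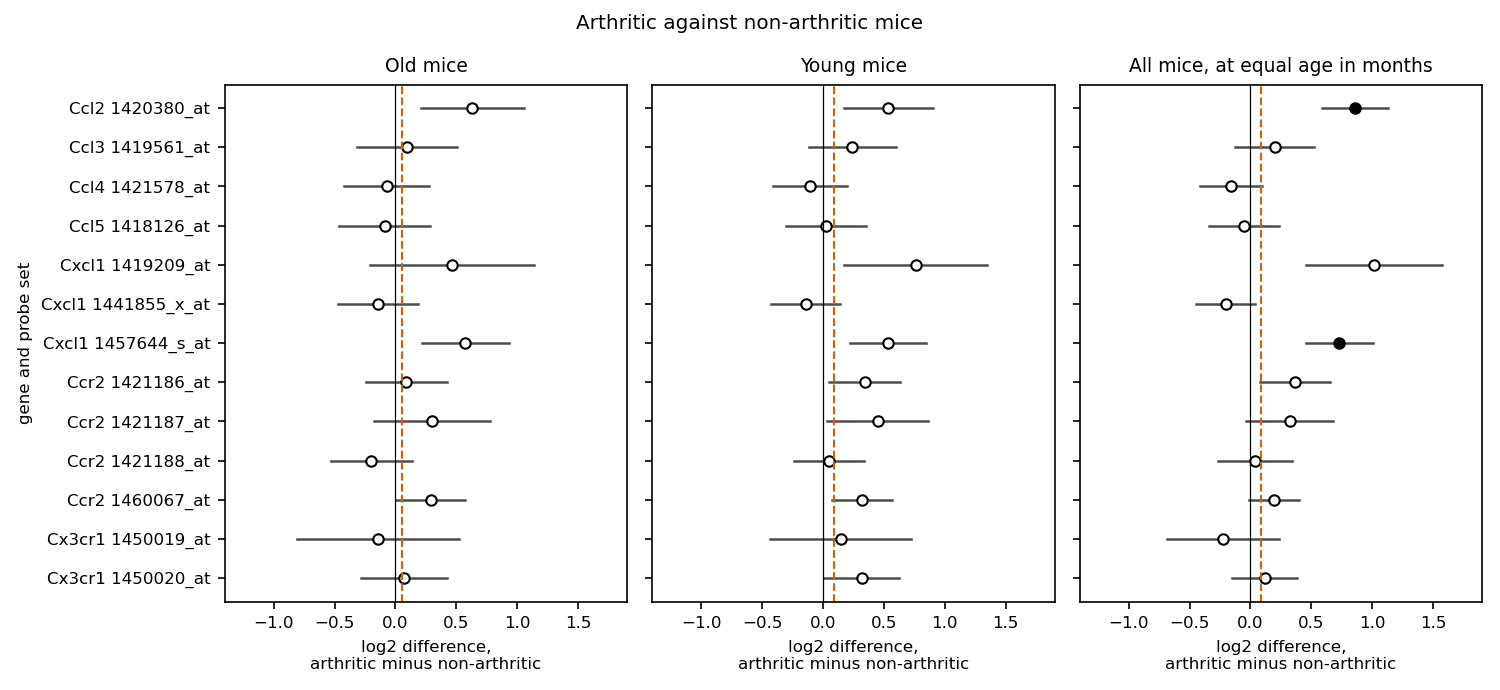
Log2 difference of arthritic minus non-arthritic mice (x-axis) with its 95% interval for each tested member probe set (y-axis), for each age group and with all mice at equal age, with filled points past the threshold and the median of all tested probe sets as a dashed line. Ccl2 and Cxcl1 probe sets 1457644_s_at and 1419209_at lie farthest to the right at equal age, with 0.86, 0.73 and 1.02.

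Old non-arthritic mice were compared with young non-arthritic mice to look at age without disease. No probe set of the 23805 (0%) passed by limma, with 759 at an unadjusted p under 0.05 (3.19%, and 2.1% lower in old mice). Lower among the latter were Ccl2, with 6.18 ± 0.42 (SD, n = 2) in old and 6.65 ± 0.09 (SD, n = 4) in young mice, and Cxcl1 probe set 1457644_s_at, with 7.94 ± 0.22 (SD, n = 2) and 8.26 ± 0.05 (SD, n = 4). The log2 differences were -0.47 (standard error 0.16) and -0.33 (standard error 0.14), both with an adjusted p of 0.997. Old non-arthritic replicate 1, the mouse of 7 months, was the lowest of all 10 for both. Leaving it out gave differences of -0.17 and -0.17, and leaving out the other old non-arthritic mouse gave -0.77 and -0.48. Along age in months at equal arthritis status, Ccl2 had a slope of -0.11 per month (standard error 0.02), and Cxcl1 had -0.15 in 1419209_at, -0.07 in 1457644_s_at and 0.02 in 1441855_x_at. The Ccr2 probe sets differed in sign, with 0.04 in 1460067_at, 0.02 in 1421187_at, -0.04 in 1421188_at and -0.05 in 1421186_at. Cx3cr1 had 0.09 in 1450019_at and 0.03 in 1450020_at, and Ccl3, Ccl4 and Ccl5 had -0.01, 0.02 and 0.01. None passed the threshold (lowest adjusted p = 0.466), and 1 probe set of the array did (0.0042%).

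**Figure D4:**
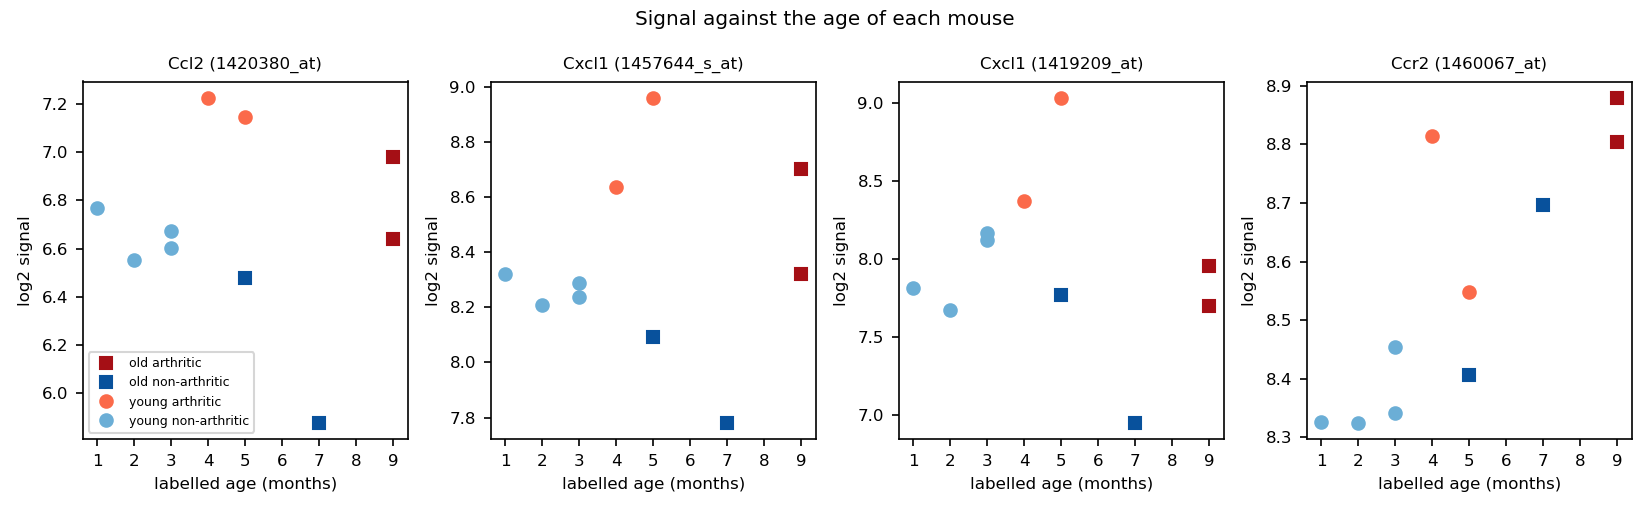
Log2 RMA signal (y-axis) against the labelled age in months (x-axis), for Ccl2, 2 Cxcl1 probe sets and 1 Ccr2 probe set, with 1 point per mouse (squares old, circles young, red shades arthritic, blue shades non-arthritic). Arthritic mice of 4 and 5 months lie above non-arthritic mice of all ages for Ccl2 and Cxcl1 probe set 1457644_s_at.

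The call of Ccl2 and that of Cxcl1 depended on single mice, as did the calls over the whole array. Leaving out each mouse in turn gave Ccl2 differences of 0.68 to 0.92 at equal age, with adjusted p from 0.0124 to 0.126. As Ccl2 entered the tests through arthritic arrays, these p-values describe what single mice do to the call. The call was lost without old non-arthritic replicate 1 (0.68, adjusted p = 0.124), young arthritic replicate 1 (0.88, adjusted p = 0.0672) and young arthritic replicate 2 (0.92, adjusted p = 0.126). For Cxcl1 probe set 1457644_s_at the range was 0.63 to 0.90, with adjusted p from 0.0239 to 0.183, and 6 of 10 fits passed. It was lost without old non-arthritic replicates 1 (0.63, adjusted p = 0.183) and 2 (0.75, adjusted p = 0.0760) and young arthritic replicates 1 (0.63, adjusted p = 0.101) and 2 (0.90, adjusted p = 0.108). Every one of these differences was above 0. Over the whole array 538 of 23805 probe sets passed at equal age with all mice. This count was 0 without old non-arthritic replicate 1 and 26 without replicate 2 of that group. It was 17 without young arthritic replicate 1 and 2 without young arthritic replicate 2. The losses are therefore not particular to these genes.

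**Figure D5:**
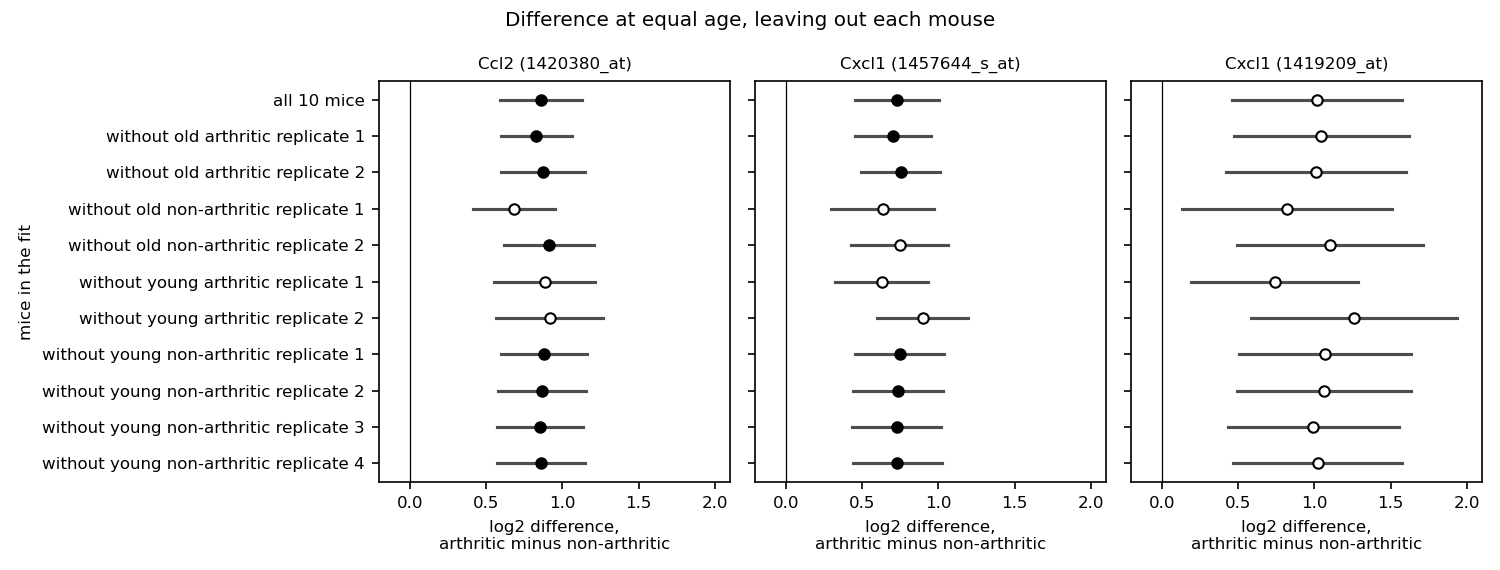
Log2 difference of arthritic minus non-arthritic mice at equal age (x-axis) with its 95% interval, in the fit of all 10 mice and with each mouse left out in turn (y-axis), where filled points passed the threshold. All values lie to the right of 0, between 0.68 and 0.92 for Ccl2 and between 0.63 and 0.90 for Cxcl1 probe set 1457644_s_at.

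The other genes of the pathway were read from lists, in which a gene stands for its brightest tested probe set. At equal age 1.81% of all tested probe sets were called higher in arthritic mice. Of 14 tested genes among 20 other inducible chemokines, 1 passed. This was Ccl9, a ligand of Ccr1, which was higher in arthritic mice by 0.52 (adjusted p = 0.0486 by limma). The neutrophil-attracting Cxcl5 (0.96, adjusted p = 0.0507) and the platelet chemokines Ppbp (0.43, adjusted p = 0.0511) and Pf4 (0.55, adjusted p = 0.0549) narrowly missed the threshold. The median of this list was 0.11, against 0.09 over all tested probe sets. None of 3 tested genes among 8 homeostatic chemokines passed. In this list Cxcl14, Ccl25 and Ccl27a lay below the filter, and Ccl19 and Ccl21a had no probe set with a single gene symbol. Cxcl13, which draws B cells into follicles, had -0.14 (adjusted p = 0.484), Cxcl12 had -0.01 (adjusted p = 0.954) and Ccl28 had 0.23 (adjusted p = 0.159). None of 17 tested genes among 21 other chemokine receptors passed either. Those with the smallest p were Xcr1 of cross-presenting dendritic cells (-0.47, adjusted p = 0.109), the scavenger receptors Ackr4 (-0.53, adjusted p = 0.131) and Ackr2 (0.24, adjusted p = 0.175), and Cxcr4 (0.47, adjusted p = 0.206).

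Of 15 tested genes among 18 NF-κB feedback and early inflammatory genes, Tnf alone passed and was higher in arthritic mice by 0.43 (adjusted p = 0.0461 by limma). The cytokine Il1a (0.32, adjusted p = 0.128), the mRNA decay factor Zfp36 (0.27, adjusted p = 0.147) and the early response gene Ier3 (0.31, adjusted p = 0.211) did not, and the median of the list was 0.08. Of 21 tested genes among 26 monocyte genes, 2 were higher in arthritic mice and none lower, beside 1.81% of all tested probe sets called higher. The list holds Ccr2 and Cx3cr1 and had a median of 0.21. The 2 genes were the membrane protein gene Ms4a6d (0.76, adjusted p = 0.0146 by limma) and the coagulation factor gene F13a1 (0.82, adjusted p = 0.0490). The chitinase-like Chil3, which neutrophil precursors also express (1.80, adjusted p = 0.0874) and the GM-CSF receptor chain Csf2ra (0.32, adjusted p = 0.103) did not pass. With each array centred on the median of its tested probe sets, Ms4a6d still passed (adjusted p = 0.0280), and Ccl9 (adjusted p = 0.101), Tnf (adjusted p = 0.116) and F13a1 (adjusted p = 0.0900) did not. Leaving out each mouse in turn, Ms4a6d passed in 6 of 10 fits, with differences of 0.74 to 0.78 over the 10 (highest adjusted p = 0.126), and was lost without any 1 of the old non-arthritic or young arthritic mice. F13a1 passed in 3 of 10 fits and Ccl9 and Tnf in 2 of 10. All 3 passed without old arthritic replicate 1 and young non-arthritic replicate 4, and F13a1 without young non-arthritic replicate 3 as well.

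Markers of some other cells had median differences at equal age away from the 0.09 of all tested probe sets, and those of others did not. The log2 summed signal of 14 tested neutrophil genes ran from 17.03 to 17.65 in arthritic and from 16.15 to 17.30 in non-arthritic mice, with a median difference of 1.13 at equal age and no gene past the threshold (13 higher at an unadjusted p under 0.05, beside 19.2% of all tested probe sets). That of 5 platelet and megakaryocyte genes ran from 14.91 to 15.46 and from 14.64 to 15.17, with a median of 0.66 and 1 gene higher. This list includes the bright chemokine genes Pf4 and Ppbp given above and is not separate from them. The summed signal of 9 mast cell and basophil genes ran from 11.34 to 12.37 and from 11.02 to 12.10, with a median of 0.79 and 2 genes higher. Of all tested probe sets, 1.81% were called higher. For the 21 monocyte genes the summed signal ran from 15.99 to 16.29 in arthritic and from 15.97 to 16.07 in non-arthritic mice. The 14 genes of NK and cytotoxic T cells, sources of Ccl3, Ccl4 and Ccl5, had a median difference of -0.25, with ranges of 13.02 to 13.52 and 13.21 to 13.91. Macrophage (0.05), T cell (-0.03), B cell (-0.01) and mesothelium and fat genes (-0.05) had medians near 0 at equal age. With the ages pooled, the ranges of arthritic and non-arthritic mice overlapped in every list, but within an age group some did not. In old mice the neutrophil genes ran from 17.03 to 17.35 in arthritic and from 16.15 to 16.31 in non-arthritic mice, and those of NK and cytotoxic T cells from 13.02 to 13.08 and from 13.49 to 13.54. Those of T cells did not overlap there either and were lower in arthritic mice, with 13.09 to 13.13 against 13.26 to 13.32. Platelet genes were higher in arthritic mice, at 14.91 or more against 14.69 or less. Monocyte genes were barely apart, with 15.9899 to 15.9918 against 15.9753 to 15.9773. Ranges of so few mice can separate by chance, and no share over all probe sets within an age group is given. The mesothelium and fat genes, with overlapping ranges, had a median difference of -0.79 in old mice (4 of 9 lower at an unadjusted p under 0.05, none past the threshold) and of -0.66 for old minus young effects. In young mice the platelet genes ran from 15.23 to 15.46 and from 14.79 to 15.17, and the monocyte genes from 16.13 to 16.29 and from 15.97 to 16.07. In young arthritic mice the summed signals of 2 further lists were also higher without overlap. These were macrophage genes (16.07 to 16.16 against 15.95 to 16.02) and mesothelium and fat genes (12.25 to 12.26 against 11.71 to 12.18). A sum weighs the brightest genes most. The median differences in young mice were 0.09 for macrophage and -0.08 for mesothelium and fat genes, against 0.09 over all tested probe sets. The mean log2 signals of mesothelium and fat genes overlapped (8.52 to 8.56 against 8.03 to 8.65). The part of these cells in the differences of Ccl2, Cxcl1 and Ccr2, at equal age or within old or young mice, was not tested.

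For each tested member, the named genes with the most similar pattern over the 10 arrays are given by Pearson correlation with its brightest tested probe set, as a description. They were Tpm1 (0.97), Mmab (0.96) and Dnm2 (0.94) for Ccl2, Dhodh (0.98), Rps20 (0.96) and Ythdf1 (0.96) for Ccl3, and Cd209a (0.95), Il2rb (0.94) and Cxcr5 (0.94) for Ccl4. Ccl5 shared Cxcr5 (0.94) with Ccl4 and was further close to Rasgrp3 (0.93) and L3mbtl3 (0.93). For Cxcl1, whose brightest probe set is the discordant 1441855_x_at, they were Tmem144 (0.97), Ppp1r26 (0.94) and Snrpd3 (0.93). They were Rnf170 (0.98), Ppp1r13b (0.97) and Tspan17 (0.96) for Ccr2, and Bach1 (0.93), Stam (0.93) and Bbx (0.92) for Cx3cr1.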

How the data were processed

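Spleen RNA of 10 immunized mice was measured, with separate mice as replicates by the labels. The authors deposited 1 log2 value for each probe set and array and the submitters' processing notes name RMA. The version of RMA is not given in the sources used. Of 45101 rows, 64 control rows were left out, and of the 45037 others 34945 carry 1 gene symbol in the platform table, 932 several and 9160 none. No method of the paper covers the arrays, and the tests were chosen here. Probe sets above the array median in at least 2 arrays (23805, with 11870 named genes) entered linear models in limma 3.58.1 (R 4.3.3, functions lmFit and eBayes), and p-values were adjusted over all of them by Benjamini-Hochberg, with a threshold of 0.05.

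One fit had a mean for each of 4 groups (6 residual degrees of freedom), which share 1 estimate of the spread, and gave the comparisons within and between age groups. The other had arthritis status and age in months (7 residual degrees of freedom). Since separate mice are the replicates, p-values reflect how these mice vary, and the number of arrays limits the precision. Deviations of same-numbered mice had correlations of -0.53 to 0.36. In the smallest groups the deviations are equal in size and opposite in sign. These correlations therefore cannot decide whether replicate numbers pair mice. The fits were tested on simulated data. The members and gene lists were chosen with earlier results of these data known. Named are all members, up to 4 genes with the smallest p at equal age of each pathway list, and for each tested member the 3 genes with the highest correlation. Probe sets with several symbols were tested but not named. Alternatives covered the filter, scaling, the variance model, weighting of arrays, a replicate block, the age term and each array left out. Figures were drawn with matplotlib 3.10.9 in Python 3.11.15.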

Additional observations from a re-analysis of the deposited data

Results flagged for a closer look

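In the group of 4 young non-arthritic mice, 1 value lay far from the other 3 in 2 of the 15 member probe sets, both in replicate 1. It was the lowest for Cxcl1 probe set 1441855_x_at (8.47 against 8.71 to 8.72), with a gap to the next mouse of 0.940 of the whole range. It was the highest for Ccr2 probe set 1460067_at (8.45 against 8.32 to 8.34), with a gap of 0.876 of the range. Chance gives about 1 such value in 20 groups.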

How the results depend on the processing

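No member difference that passed a threshold changed its sign under any alternative. Over the 6 comparisons, alternatives other than leaving out a mouse left 633 member results on their side of the threshold, with movement within 1 standard error where they had not passed, and took 4 out of significance and brought 5 into it. The other 35 had not passed and moved by more than their standard error, still without passing. At equal age Ccl2 lost its call with the replicate number as a block (0.85, adjusted p = 0.0609 by limma) and without age in the fit (0.50, adjusted p = 0.0759), and could not be fitted under the filter above the median in all arrays. Cxcl1 probe set 1457644_s_at lost it with the block (0.74, adjusted p = 0.0622) and with arrays centred on the median of tested probe sets (0.64, adjusted p = 0.0507), a setting chosen after seeing the data. Cxcl1 probe set 1419209_at passed without a filter (adjusted p = 0.0226) and with array weights (0.0105), and Ccr2 probe set 1421186_at with array weights (0.0232). In young mice Cxcl1 probe set 1457644_s_at passed without a filter (0.53, adjusted p = 0.0450). Signals near or below the array medians limit what can be said of Ccl2, Ccl7, Cxcl2 and Cx3cr1 probe set 1450019_at.

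Counts of called probe sets over the whole array at equal age were 538 as reported, 5475 without a filter, 256 above the median in all arrays, 274 with arrays centred on their medians, 166 centred on tested probe sets (68 higher and 98 lower, against 431 and 107), 177 with quantile normalization, 4857 with array weights, 29 with the replicate block, 2517 without age and 0 to 872 leaving out a mouse. In old mice they were 17 as reported, and in the same order 2280, 3, 21, 11, 32 and 11, then 0 with the block, 7 with an intensity trend, 0 with only the groups compared and 0 to 1532 leaving out a mouse. In young mice they were 74, and 3186, 2, 57, 14, 34 and 533, then 0 with the block, 6 with the trend, 17 with only the groups compared and 0 to 84 leaving out a mouse. Along age in months they were 1 as reported, 2 above the median in all arrays, 0 centred on tested probe sets, with the trend, with weights, with the block or in non-arthritic mice only, and 0 to 1 leaving out a mouse. Leaving out a mouse gave 0 to 2 for old against young mice without arthritis and 0 to 55 for the difference of the effects. The cause of these changes was not tested.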

Other observations

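An age of 5 months occurs in both labelled age groups, which allows a pair of mice of the same age to be set side by side, with no test. Young arthritic replicate 1 and old non-arthritic replicate 2 read 7.15 and 6.48 for Ccl2, 9.03 and 7.77 for Cxcl1 probe set 1419209_at, 8.96 and 8.09 for Cxcl1 probe set 1457644_s_at and 7.09 and 6.05 for Cxcl2. For the third Cxcl1 probe set, 1441855_x_at, they read 8.63 and 8.56. The arthritic mouse, also the highest mouse of the series for Cxcl2 and Cxcl1 probe sets 1419209_at and 1457644_s_at, was the higher one for these ligands. For Ccl4 (8.01 and 8.18), Ccl5 (12.34 and 12.39) and Ccl7 (5.22 and 5.59) it was the lower one.

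Among the 4 young non-arthritic mice, the 2 mice of 3 months lay above those of 1 and 2 months in 10 of the 15 member probe sets, again with no test. All 10 are tested probe sets, and the same order held in 31.8% of the 23805 tested and 21.8% of all 45037 probe sets. They read 12.38 and 12.56 against 12.02 and 12.11 for Ccl5, 8.22 and 8.40 against 7.88 and 7.99 for Ccl4, 7.51 and 7.38 against 7.02 and 7.01 for Ccl3 and 10.09 and 10.26 against 9.87 and 9.94 for Ccr2 probe set 1421186_at. All 4 Ccr2 and both Cx3cr1 probe sets had this order, as did Cxcl1 probe set 1419209_at, while Ccl2, Ccl7, Cxcl2 and the other Cxcl1 probe sets overlapped.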
